A study of Homo sapiens with 18 samples.

Results

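Heat shock chaperones help proteins fold and keep damaged ones from aggregating. The HSP70 proteins bind and release unfolded stretches in an ATP cycle that J proteins (the DNAJ families) start and nucleotide exchange factors of the HSP110 family complete, while HSP90 acts later on signalling proteins such as kinases and steroid hormone receptors. HSP60 with its lid HSP10 folds proteins inside mitochondria, and the small heat shock proteins (HSPB) hold unfolded proteins without using ATP. HSF1 is the transcription factor that raises many of these genes under stress through heat shock elements in their promoters, and STAT3 has been reported to act at some of the same promoters.

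The chaperone genes of cytosol and mitochondria were described here in 2 human prostate cancer cell lines depleted of Stat3 or Stat5a/b. They were taken by symbol, as genes whose names begin with HSPA, HSPB, HSPD, HSPE, HSPH, HSP90A, DNAJA, DNAJB or DNAJC and a digit, together with HSF1. HSPA5, DNAJB9 and DNAJC3, which belong to the endoplasmic reticulum (ER), were left out. This gave 69 of the 19775 genes measured. By symbol they comprised 9 genes of the HSP70 family, 3 of HSP110, 2 of HSP90, 2 for HSP60 and HSP10, 7 of the small heat shock proteins, 4 class A, 12 class B and 29 class C genes of the J proteins, and HSF1. These counts include 5 noncoding transcripts that carry the name of a neighbouring chaperone gene: HSPA2-AS1 in HSP70, DNAJB8-AS1 in class B, and DNAJC27-AS1, DNAJC3-DT and DNAJC9-AS1 in class C. The label of cytosol and mitochondria did not hold for every gene. The products of DNAJB11, DNAJC10, HSPA13 and DNAJC1 are among those known to reside in the ER or its membrane. So are those of DNAJB12, DNAJB14, DNAJC16 and DNAJC18, which are among the called genes described below. HSPA1A, HSPA1B and HSPA8, the main stress-inducible and constitutive cytosolic HSP70 genes, had no probe set with a single symbol and are covered below only through jointly annotated probe sets.

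The groups were CWR22Rv1 cells with Stat5a/b siRNA, Stat3 siRNA or scramble siRNA, and DU145 cells with the same 3 siRNAs, each harvested 48 h after transfection with Lipofectamine. DU145 came from a brain metastasis of a prostate carcinoma and does not depend on androgen, and CWR22Rv1 came from a relapsed prostate carcinoma xenograft. Both are single established lines, so each result is for that line. There were 3 arrays in each of the 6 groups, done in triplicate without pooling the RNA. The labels do not say that the triplicates were separate cultures, so the p-values cover only array-to-array variation within a group, and this may be technical.

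Stat3 siRNA left STAT3 at 45.7% of control in CWR22Rv1 and at 32.6% in DU145. Stat5a/b siRNA left STAT5B at 53.4% of control in CWR22Rv1 and at 39.1% in DU145, whereas STAT5A, a dim probe set, did not pass the test in either line (adjusted p = 0.146 in CWR22Rv1 and 0.101 in DU145, limma). Arrays within a group correlated at 0.9951 to 0.9982 across genes, and no array stood apart. The epithelial genes KRT8, KRT18, EPCAM and CDH1 had group means of 8.92 to 13.07 on the log2 scale, while the leukocyte genes PTPRC and CD3E had 2.96 to 4.94. KLK2, a prostate luminal gene, was at 10.14 in CWR22Rv1 control arrays and 3.54 in DU145 control arrays, and VIM, a mesenchymal gene, at 7.04 in CWR22Rv1 and 13.05 in DU145. TMPRSS2 (8.49 and 4.81) and ZEB1 (2.24 and 7.71) differed in the same sense. The luminal KLK3 (6.76 and 6.69) and the mesenchymal FN1 (8.23 and 7.86) did not. LUM, a fibroblast gene, was at 8.12 in CWR22Rv1 and 2.56 in DU145. CDH1 was lower in DU145 with Stat5a/b siRNA (8.92) and Stat3 siRNA (9.11) than with scramble siRNA (10.10), and ZEB1 was higher (8.33 and 8.35, against 7.71). FN1 was lower there (7.33 and 7.56, against 7.86), and VIM stood at 13.16 and 13.28, against 13.05. Their part in the chaperone results was not tested.

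Promoter sequence was examined first, because heat shock elements and STAT elements are where HSF1 and the STAT proteins can bind. RefSeq promoters on GRCh38.p14, which span the start site, were at hand for 61 of the 69 genes. A heat shock element of 2 facing units was written GAANNTTC or TTCNNGAA, and one of 3 units GAANNTTCNNGAA or TTCNNGAANNTTC, so a 3-unit match also holds 2-unit matches. The 2-unit form occurred in 11 of the 61 chaperone promoters and in 11.553% of all 15381 promoters. The 3-unit form occurred in 3, those of HSPA6, DNAJB6 and DNAJA1, and in 0.429% of all promoters. The STAT element TTCNNNGAA occurred in 4, those of DNAJB12, DNAJC13, DNAJC15 and DNAJC9, and in 6.95% of all promoters. Each motif reads the same on both strands or was searched in both forms. A match describes the letters and is not evidence of binding. The promoters with a 3-unit match and that of HSPB8, which has a 2-unit match, are shown because their genes respond differently below, with the heat shock element in capitals.
HSPA6, chr1:161524440-161524499, plus strand: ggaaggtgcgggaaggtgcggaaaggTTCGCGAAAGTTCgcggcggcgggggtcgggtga
DNAJB6, chr7:157336849-157336908, plus strand: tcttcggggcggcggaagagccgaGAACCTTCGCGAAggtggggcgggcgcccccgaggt
DNAJA1, chr9:33025267-33025296, plus strand: cgccgggcgGAACTTTCCAGAAcgctcggt
HSPB8, chr12:119178821-119178880, plus strand: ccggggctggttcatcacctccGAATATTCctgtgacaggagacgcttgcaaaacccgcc
The heat shock element starts 74 bases before the start site in HSPA6, 131 before it in DNAJB6 and 88 before it in HSPB8 for the copy shown, and 4 bases into the transcript in DNAJA1. For 3 genes that were called with a STAT siRNA, the STAT element is in capitals.
DNAJB12, chr10:72355035-72355084, minus strand: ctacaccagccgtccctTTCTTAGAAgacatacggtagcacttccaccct
DNAJC13, chr3:132417362-132417411, plus strand: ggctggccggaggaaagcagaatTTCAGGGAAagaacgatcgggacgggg
DNAJC9, chr10:73247421-73247470, minus strand: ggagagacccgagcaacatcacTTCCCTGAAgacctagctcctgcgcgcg
Of these, in the DU145 comparisons given below, DNAJB12 fell with both siRNAs, DNAJC13 rose with Stat3 siRNA and DNAJC9 rose with Stat5a/b siRNA. DNAJC15, which also has the element, was not called in any siRNA against scramble comparison. Of all 69 genes, 29 were called in at least 1 such comparison. No link between the element and the calls is drawn from these 4 genes. The part of the element in these changes was not tested.

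Stat3 siRNA in DU145 lowered HSPA4, the HSP110-type exchange factor of HSP70, DNAJA1, a cytosolic J protein that partners HSP70, HSP90AB1, the constitutive HSP90, and HSPE1, the mitochondrial HSP10. The J proteins DNAJC18, DNAJB14 and DNAJB12 of the ER membrane also fell, DNAJC16 of the same membrane did not (group means of 6.84 with Stat3 siRNA and 6.69 with scramble siRNA), and DNAJB6, a J protein that keeps aggregation-prone proteins soluble, rose. Genes are termed called where limma's adjusted p was under 0.05. By this threshold 12 of the 69 genes were lower (17.4%) and 3 higher (4.35%), where 8.25% of all genes were lower and 7.51% higher. The median log2 change of the 69 genes was -0.04, against 0.01 for all genes. Changes were small, and none of the 69 genes reached 2-fold with either siRNA in either line.

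HSPA4 gave log2 values of 10.78, 10.75 and 10.77 in Stat3 siRNA arrays, against 11.20, 11.14 and 11.15 in scramble arrays. Every Stat3 siRNA array lay below every control, a log2 change of -0.40 ± 0.06 (standard error) to 75.8% of control (adjusted p = 9.93e-05, limma). The probe set of HSPA4 is of a kind that can hybridise with related transcripts, and its second-brightest probe set changed by -0.38 (adjusted p = 0.00539, limma over all probe sets). DNAJA1 stood at 10.87, 10.89 and 10.93 with Stat3 siRNA, against 11.31, 11.21 and 11.30 with scramble siRNA. The groups did not overlap, and the change was -0.37 ± 0.05, to 77.1% of control (adjusted p = 6.99e-05). HSPE1 had 10.67, 10.85 and 10.65 with Stat3 siRNA, against 11.00, 10.88 and 11.03 with scramble siRNA, so the highest Stat3 siRNA array came close to the lowest control. Its change was -0.25 ± 0.07 (adjusted p = 0.023). HSPD1, which encodes HSP60 and is transcribed away from HSPE1, with start sites at positions 197500274 and 197500379 of chromosome 2 (GRCh38.p14), changed by -0.10 ± 0.05 and did not pass the test (adjusted p = 0.267). HSP90AB1 had 12.85, 12.71 and 12.82 with Stat3 siRNA, against 12.93, 12.96 and 13.07 with scramble siRNA, a change of -0.19 ± 0.06 (adjusted p = 0.0303). The inducible HSP90AA1 changed by 0.04 ± 0.05 (adjusted p = 0.707).

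**Figure D1:**
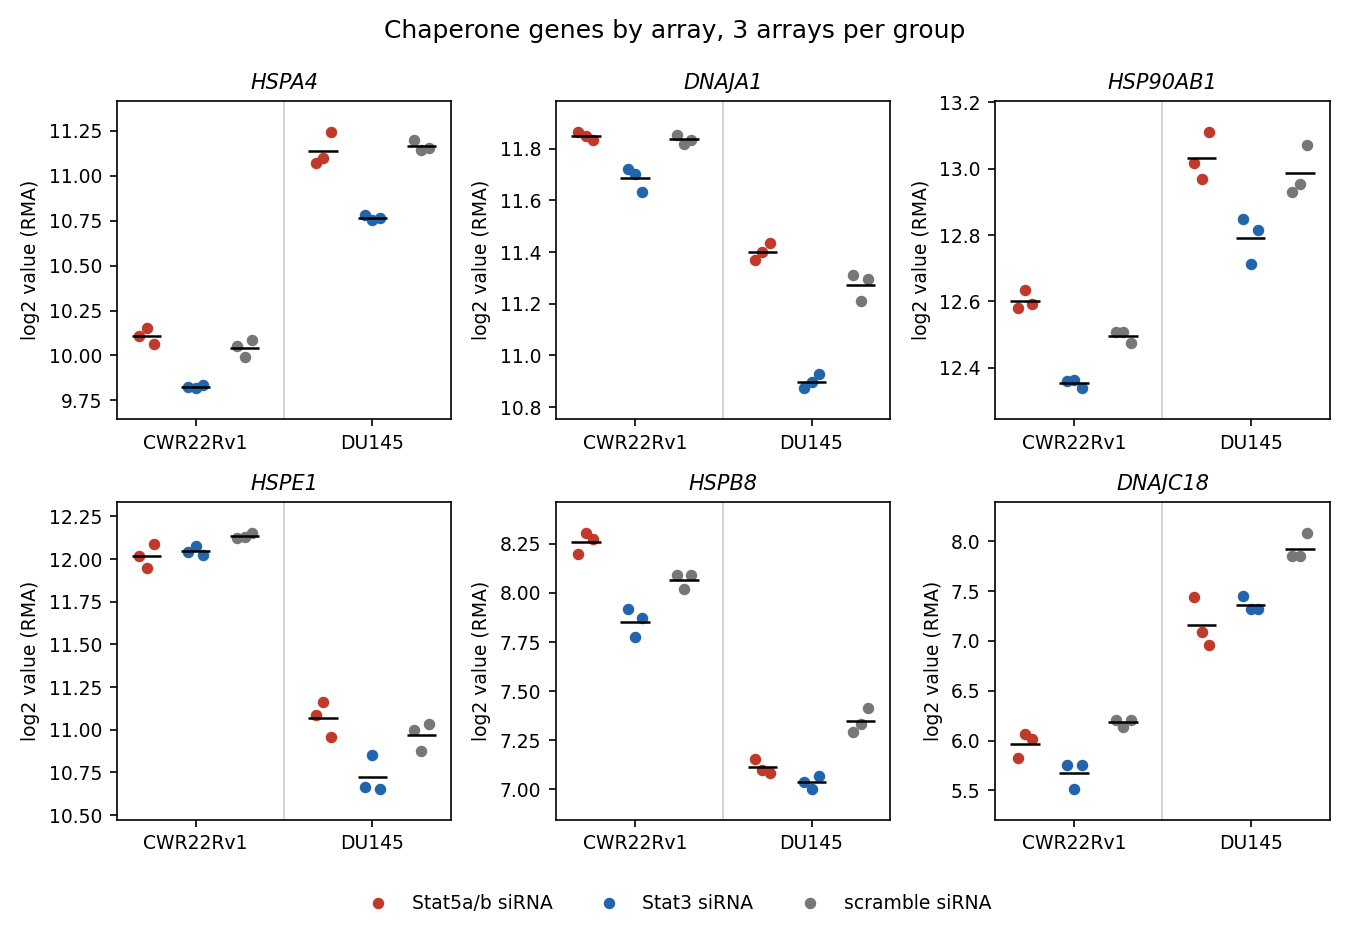
Each panel plots the log2 value of 1 gene (vertical axis, RMA log2 units) for every array of the 6 groups, with Stat5a/b siRNA in red, Stat3 siRNA in blue and scramble siRNA in grey within each line, and a black bar at the group mean. HSPA4 and DNAJA1 arrays with Stat3 siRNA in DU145 lie at 10.75 to 10.93, below every Stat5a/b siRNA and scramble array of that line.

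Among the J proteins, DNAJC18 and DNAJC12 had the largest falls with Stat3 siRNA in DU145. DNAJC18, an ER-membrane J protein, had 7.45, 7.32 and 7.32 with Stat3 siRNA, against 7.85, 7.85 and 8.08 with scramble siRNA. That was a change of -0.56 ± 0.11 (adjusted p = 0.00204) with no overlap. DNAJC12, a co-chaperone of aromatic amino acid hydroxylases, had 3.64, 4.23 and 3.30, against 4.45, 4.39 and 4.55. It lay far below the all-gene median of 6.33 in this line, so its change of -0.74 ± 0.17 (adjusted p = 0.00744) comes from a dim signal. DNAJC6, the auxilin that uncoats clathrin vesicles, had 7.51, 7.76 and 7.76 with Stat3 siRNA, against 8.07, 8.11 and 8.37 with scramble siRNA, and fell by 0.51 ± 0.09 on the log2 scale (adjusted p = 0.000726). The related ER-membrane J proteins DNAJB14 and DNAJB12 fell by 0.44 ± 0.09 and 0.32 ± 0.07 on the log2 scale. Both other single-symbol probe sets of DNAJB14 also fell, by 0.59 and 0.69, whereas the 3 others of DNAJB12 changed by -0.10, -0.08 and -0.03 without passing the test. DNAJC2, a ribosome-associated J protein, fell by 0.26 ± 0.07 (adjusted p = 0.0113). HSPA13, an HSP70 relative of the ER, fell by 0.30 ± 0.09 (adjusted p = 0.0317). The small heat shock protein HSPB8, a partner of BAG3 in selective autophagy, had 7.04, 7.00 and 7.07 with Stat3 siRNA, against 7.29, 7.33 and 7.41 with scramble siRNA, a change of -0.31 ± 0.06 (adjusted p = 0.00112). Its dimmer second probe set changed by 0.23 (adjusted p = 0.264).

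The 3 called rises were in J proteins. DNAJB6 had 8.64, 8.51 and 8.70 with Stat3 siRNA, against 8.05, 8.12 and 8.01 with scramble siRNA, a change of 0.56 ± 0.09, to 147% of control (adjusted p = 0.000526). The arrays of the groups were well apart. A pair of brighter probe sets annotated to both DNAJB6 and TMEM135 changed by 0.18 (adjusted p = 0.196) and 0.13 (adjusted p = 0.446), so the rise was measured on 1 probe set only. DNAJC30, a mitochondrial J protein, had 8.59, 8.55 and 8.63, against 8.18, 8.26 and 8.34, and rose by 0.33 ± 0.06 (adjusted p = 0.00125). Its other 2 probe sets changed by 0.02 each (adjusted p = 0.962 and 0.947). DNAJC13, which acts on endosomes, had 8.91, 9.04 and 8.94, against 8.75, 8.83 and 8.76, and rose by 0.19 ± 0.06 (adjusted p = 0.0346). Of the other single-symbol probe sets of called genes, 22 of 23 had the sign of the one used, some of them near 0. With the mean of all probe sets of a gene, DNAJC30 (0.12, adjusted p = 0.234), DNAJC13 (0.13, adjusted p = 0.308), DNAJB12 (adjusted p = 0.112), HSP90AB1 (adjusted p = 0.0598), HSPA13 (adjusted p = 0.0503) and HSPB8 (adjusted p = 0.797) were no longer called.

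HSF1 itself changed by 0.10 ± 0.10 with Stat3 siRNA in DU145 (adjusted p = 0.597). HSPA9, the mitochondrial HSP70, changed by -0.12 ± 0.07 (adjusted p = 0.273), HSPH1, the heat-inducible HSP110, by -0.04 ± 0.07 (adjusted p = 0.769) and HSPB1, the small heat shock protein HSP27, by -0.03 ± 0.08 (adjusted p = 0.853). HSPA6, the strictly inducible HSP70 with a 3-unit heat shock element, stayed near 5 log2 units, below the all-gene median, and changed by 0.07 ± 0.11 (adjusted p = 0.746). DNAJB1, the classical HSP40, changed by -0.20 ± 0.07 and narrowly missed the threshold (adjusted p = 0.0605). Same-numbered Stat3 and scramble arrays of DU145 deviated together, and a fit with the number as a block let DNAJB1 (adjusted p = 0.014), DNAJB11 (-0.17, adjusted p = 0.0385) and HSPA2 (-0.21, adjusted p = 0.0192) pass as lower, and DNAJB13 (0.33, adjusted p = 0.00885) and the ribosome-associated HSPA14 (0.21, adjusted p = 0.0255) as higher. Of the 15 calls, 10 were kept when any 1 array was left out. DNAJC2, DNAJC13, HSPA13, HSPE1 and HSP90AB1 were not, and the adjusted p of HSP90AB1 reached 0.119. When the model was fitted to DU145 arrays alone, 7 genes were lower and 2 higher.

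Stat5a/b siRNA in DU145 lowered the J proteins DNAJC16, DNAJC18 and DNAJB1 and raised DNAJB6, while HSPA4, DNAJA1, HSPE1 and HSP90AB1, which fell with Stat3 siRNA, did not pass the test. By the same threshold 16 of the 69 genes were lower (23.2%) and 4 higher (5.8%), where 12.5% of all genes were lower and 11.8% higher. The median change was -0.03, against 0.01 for all genes. With quantile normalisation of the arrays 16 were lower and 8 higher. Of the 45 J protein genes, 4 of them noncoding and not called, 14 were lower (31.1%) and 3 higher (6.67%), and of the other 24 genes 2 were lower (8.33%) and 1 higher (4.17%), a difference that was not tested. HSPA4 changed by -0.03 ± 0.06 (adjusted p = 0.767), DNAJA1 by 0.13 ± 0.05 (adjusted p = 0.0737), HSPE1 by 0.10 ± 0.07 (adjusted p = 0.329) and HSP90AB1 by 0.05 ± 0.06 (adjusted p = 0.624).

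DNAJC16, an ER-membrane J protein, had log2 values of 5.64, 5.95 and 6.01 in Stat5a/b siRNA arrays, against 6.67, 6.62 and 6.78 in scramble arrays. It fell by 0.82 ± 0.09, to 56.6% of control (adjusted p = 6.68e-06), with the arrays well apart. Its other bright probe set fell by 0.70 (adjusted p = 0.000664), and a dim one changed by 0.08 (adjusted p = 0.708). DNAJB1 had 9.38, 9.43 and 9.62 with Stat5a/b siRNA, against 9.98, 9.90 and 10.05 with scramble siRNA, a change of -0.50 ± 0.07, to 70.7% of control (adjusted p = 7.77e-05). Its second probe set fell by 0.39 (adjusted p = 0.00871). DNAJC18 had 7.44, 7.08 and 6.96, against 7.85, 7.85 and 8.08, a change of -0.77 ± 0.11 (adjusted p = 9.86e-05). DNAJC12 had 4.18, 3.64 and 3.78, against 4.45, 4.39 and 4.55, a dim signal that changed by -0.59 ± 0.17 (adjusted p = 0.0196). None of these 4 genes had overlapping groups. The share of all genes without overlap was not computed. The test on the same arrays had picked these genes, so the lack of overlap adds no support.

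The other J proteins that fell have varied roles. DNAJC5, the cysteine string protein of secretory vesicles, fell by 0.45 ± 0.08 (adjusted p = 0.000458), though its other probe sets changed by only -0.14 and -0.17 and did not pass. DNAJC8, a splicing-associated J protein, fell by 0.29 ± 0.06 (adjusted p = 0.00219), and both its other probe sets fell by 0.38. DNAJC24, a factor of diphthamide synthesis, fell by 0.30 ± 0.07 (adjusted p = 0.00356). The ER-lumen J proteins DNAJC10, a disulfide reductase, and DNAJB11, a partner of the ER HSP70, fell by 0.36 ± 0.09 (adjusted p = 0.00803) and 0.27 ± 0.06 (adjusted p = 0.00251). DNAJB12 fell by 0.29 ± 0.07 (adjusted p = 0.00396) and DNAJC6 by 0.30 ± 0.09 (adjusted p = 0.0183). DNAJC17, DNAJC28 and DNAJC14 fell by 0.47 ± 0.16, 0.45 ± 0.13 and 0.22 ± 0.07. Outside the J proteins, HSPA2, an HSP70 known for its need in mouse spermatogenesis, fell by 0.29 ± 0.07 (adjusted p = 0.00686), and HSPB8 by 0.23 ± 0.06 (adjusted p = 0.00585). The second probe set of HSPB8 changed by 0.34 (adjusted p = 0.0564), and with the mean of both probe sets its change turned to 0.05 (adjusted p = 0.658).

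The 4 rises were DNAJB6, DNAJC27, DNAJC9 and HSP90AA1. DNAJB6 had 8.33, 8.41 and 8.74 with Stat5a/b siRNA, against 8.05, 8.12 and 8.01 with scramble siRNA, a change of 0.43 ± 0.09 (adjusted p = 0.00258), again on the single probe set described above. DNAJC27, a small GTPase with a J domain, had 7.50, 7.37 and 7.62, against 7.18, 7.15 and 7.28, a change of 0.29 ± 0.08 (adjusted p = 0.0121). Its other probe sets changed by 0.32 (adjusted p = 0.12), -0.10 and -0.11, and their mean with the one used by 0.10 (adjusted p = 0.383), which ends the call. DNAJC9, a chaperone of histones H3 and H4, had 11.09, 11.09 and 11.20, against 10.83, 10.84 and 10.91, a change of 0.26 ± 0.06 (adjusted p = 0.00226). In each of these genes every Stat5a/b siRNA array was above every control, which adds no support to calls made on the same arrays. HSP90AA1 had 13.33, 13.36 and 13.43, against 13.16, 13.28 and 13.20, a change of 0.16 ± 0.05 (adjusted p = 0.0407) whose groups lay close together. HSF1 changed by -0.12 ± 0.10 (adjusted p = 0.456), HSPD1 by 0.04 ± 0.05 (adjusted p = 0.617), HSPA9 by 0.06 ± 0.07 (adjusted p = 0.58), HSPH1 by 0.10 ± 0.07 (adjusted p = 0.308) and HSPB1 by -0.08 ± 0.08 (adjusted p = 0.49). Of the 20 calls, 13 were kept when any 1 array was left out. DNAJC12, DNAJC14, DNAJC17, DNAJC27, DNAJC28, DNAJC6 and HSP90AA1 were not, DNAJC27 only without Stat5a/b siRNA replicate 3 (adjusted p = 0.0525), and DU145 arrays fitted alone gave 9 lower and 2 higher. The mean of all probe sets also ended the calls of DNAJC9 (0.19, adjusted p = 0.0947) and DNAJC6 (-0.16, adjusted p = 0.0715).

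**Figure D2:**
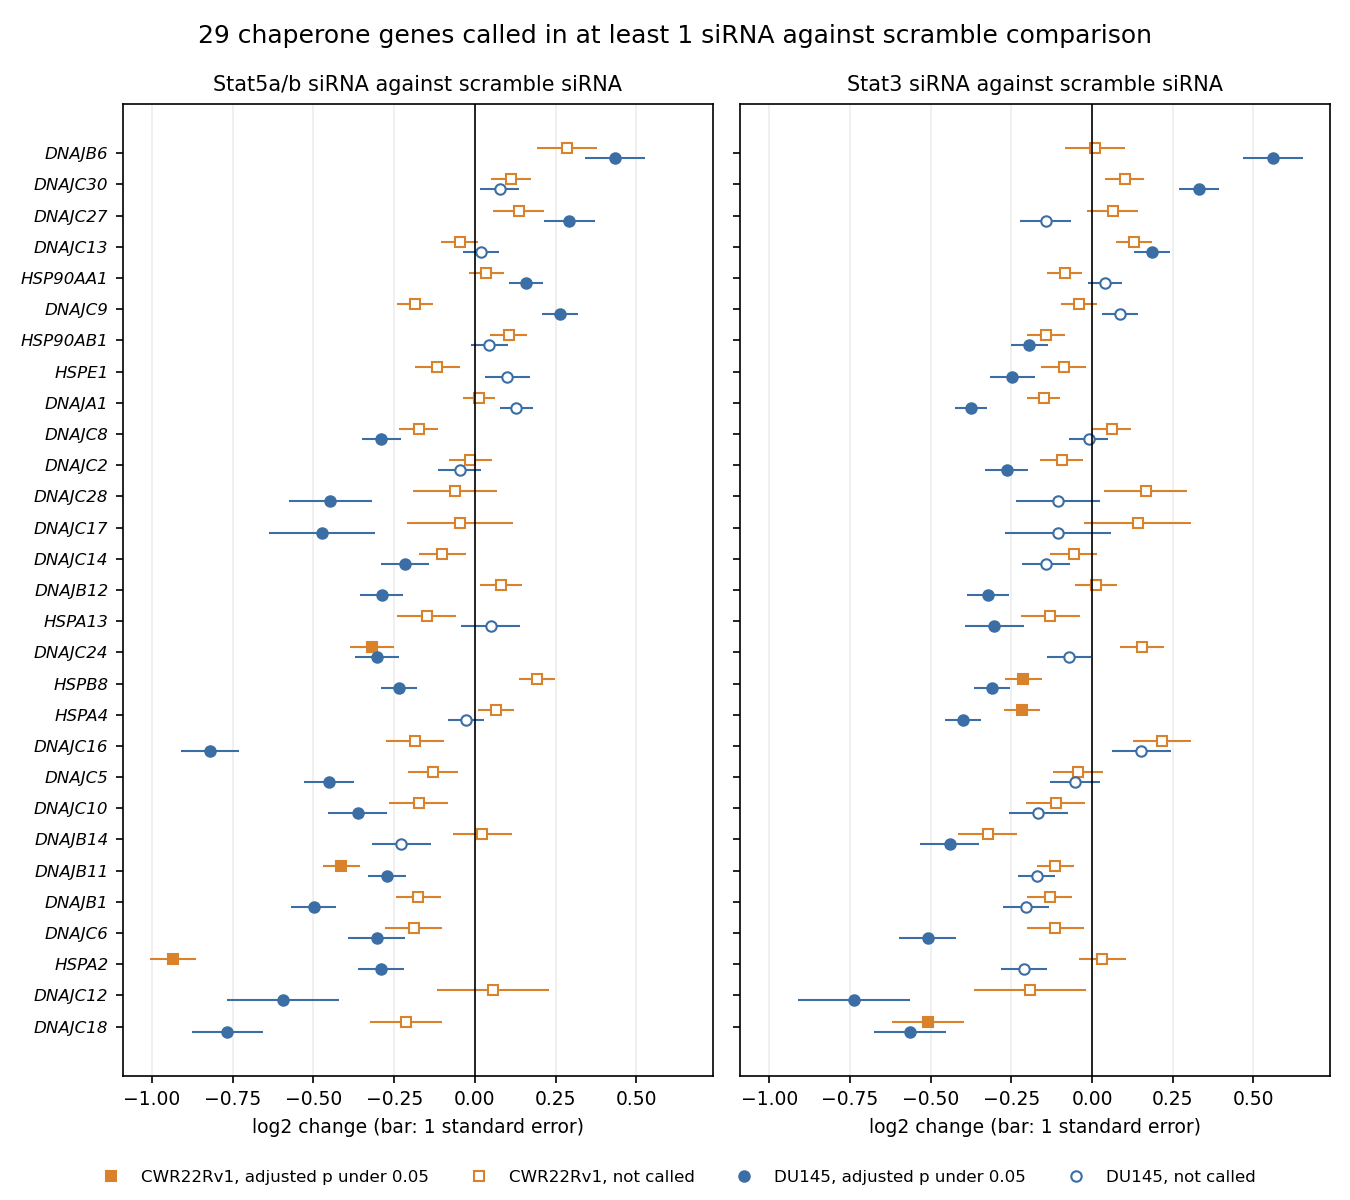
The log2 change against scramble siRNA (horizontal axis, bars of 1 standard error) is plotted for the 29 genes called in at least 1 siRNA comparison, with Stat5a/b siRNA on the left, Stat3 siRNA on the right, CWR22Rv1 as orange squares and DU145 as blue circles. Filled symbols passed an adjusted p of 0.05, and no change reaches 2-fold (1 log2 unit), the largest being -0.94 in HSPA2.

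Both DU145 comparisons used the same scramble arrays, so their values are given only side by side. Called in both were DNAJB12, DNAJB6, DNAJC12, DNAJC18, DNAJC6 and HSPB8, each in the same direction. Shared control arrays favour a common direction, and the share of all genes called in both was not computed, so no conclusion is drawn.

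CWR22Rv1 showed fewer called changes among the chaperones than DU145 when all arrays were fitted together. This difference depended on that fit. With each line fitted alone, Stat3 siRNA gave 8 calls in CWR22Rv1 and 9 in DU145, and Stat5a/b siRNA gave 12 and 11. For fits to a single line, here and elsewhere in the text, the share of all genes called is not given. Their counts therefore describe the 69 genes only. In the fit to all arrays, Stat3 siRNA in CWR22Rv1 lowered 3 of the 69 genes (4.35%), where 2.02% of all genes were lower. It raised 0, where 2.75% of all genes were higher. At an unadjusted p under 0.05 in limma, 10 were lower and 6 higher. In the fit over all 54613 probe sets, which counts probe sets and not genes, 6697 passed that threshold in either direction. That count takes in probe sets without a symbol, so it is not a share to set the 69 genes against. The median change was -0.04, against -0.0042 for all genes. The 3 genes were HSPA4, DNAJC18 and HSPB8, and each of them had also fallen in DU145, which shares no arrays with CWR22Rv1: they were 100% of the CWR22Rv1 falls and 25% of the DU145 falls. Of all genes, those lower in both lines were 63.8% of the CWR22Rv1 falls and 15.6% of the DU145 falls.

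HSPA4 had 9.82, 9.82 and 9.84 with Stat3 siRNA in CWR22Rv1, against 10.05, 9.99 and 10.09 with scramble siRNA. The 3 Stat3 siRNA arrays were nearly identical and below every control, a change of -0.22 ± 0.06, to 86.1% of control (adjusted p = 0.0335). DNAJC18 had 5.75, 5.51 and 5.76, against 6.21, 6.14 and 6.20, a change of -0.51 ± 0.11 (adjusted p = 0.0137), in this line below the all-gene median. HSPB8 had 7.92, 7.77 and 7.87, against 8.09, 8.02 and 8.09, a change of -0.21 ± 0.06 (adjusted p = 0.0407). The J protein DNAJB14 changed by -0.32 ± 0.09 and just missed the threshold (adjusted p = 0.0553). It passed in limma with quantile normalisation (adjusted p = 0.0377), cyclic loess (0.0298), CWR22Rv1 fitted alone (0.0196) and the mean of its probe sets (0.0473). It also passed without dim genes (adjusted p = 0.0248), with the replicate block (0.00832) and with a trended, robust prior (0.0158). DNAJA1 changed by -0.15 ± 0.05 (adjusted p = 0.107) and HSP90AB1 by -0.14 ± 0.06 (adjusted p = 0.204). DNAJA1 passed in limma without dim genes (adjusted p = 0.03) and with the trended, robust prior (0.0145), and HSP90AB1 with that prior (0.0332). HSPE1 changed by -0.09 ± 0.07 (adjusted p = 0.612), HSPD1 by -0.07 ± 0.05 (adjusted p = 0.579), HSPA9 by -0.15 ± 0.07 (adjusted p = 0.266) and HSPH1 by -0.16 ± 0.07 (adjusted p = 0.214). HSPB1 changed by 0.19 ± 0.08 (adjusted p = 0.216, 0.0203 with CWR22Rv1 fitted alone and 0.0415 with the replicate block). HSF1 changed by 0.25 ± 0.10 (adjusted p = 0.216, and 0.0439 with CWR22Rv1 fitted alone). No one of the 3 calls was kept in every fit that left out 1 array, and the adjusted p of HSPA4 reached 0.154. With the mean of both its probe sets HSPB8 changed by -0.11 (adjusted p = 0.519). CWR22Rv1 arrays were less spread than DU145 arrays, and a fit to CWR22Rv1 alone called 5 lower and 3 higher, these 3 genes among them.

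Stat5a/b siRNA in CWR22Rv1 lowered HSPA2, DNAJB11 and DNAJC24, the last 2 being J proteins, with HSPA2 near 52.3% of control. These were 3 of 69 genes (4.35%), where 3.3% of all genes were lower. None rose by the test (0 of 69), where 3.16% of all genes were higher, and at an unadjusted p under 0.05 in limma 9 were lower and 6 higher. Over all 54613 probe sets, 7381 passed that threshold in either direction, which is not a share over genes. The median change was -0.01, against 0.02 for all genes. The 3′ minus 5′ difference of the GAPDH control probe sets, a log2 measure of RNA integrity, was 0.125 to 0.147 in these Stat5a/b siRNA arrays, against 0.062 to 0.097 in scramble arrays, while that of ACTB overlapped (0.728 to 0.841, against 0.75 to 0.769). Its part in the result was not tested. These 3 genes were also lower under that siRNA in DU145, 100% of the CWR22Rv1 falls and 18.8% of the DU145 falls, where the shares over all genes were 55.7% and 14.7%.

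HSPA2 had 7.94, 7.95 and 7.95 in CWR22Rv1 with Stat5a/b siRNA, against 8.93, 8.84 and 8.87 with scramble siRNA and with Stat3 siRNA at 8.95, 8.85 and 8.94. The Stat5a/b siRNA arrays formed a tight group almost 1 log2 unit below all others, a change of -0.94 ± 0.07 (adjusted p = 1.04e-06). It had a single probe set, so no second measurement bears on it. DNAJB11 had 10.03, 10.12 and 10.12, against 10.53, 10.46 and 10.51, a change of -0.41 ± 0.06, to 75.1% of control (adjusted p = 0.000348). DNAJC24 had 8.17, 7.98 and 8.11, against 8.44, 8.43 and 8.36, a change of -0.32 ± 0.07 (adjusted p = 0.00928), and missed the threshold without Stat5a/b siRNA replicate 2 (adjusted p = 0.061) or with the mean of its probe sets (-0.28, adjusted p = 0.0838). In DU145 HSPA2 had 9.10, 8.97 and 8.83 with Stat5a/b siRNA, against 9.33, 9.19 and 9.25 with scramble siRNA. There DNAJB11 had 10.35, 10.29 and 10.27, against 10.64, 10.57 and 10.52, and DNAJC24 had 7.82, 7.88 and 7.88, against 8.29, 8.11 and 8.09. In all 3 genes and both lines the groups did not overlap. The calls were made on the same arrays and the share over all genes was not computed, so this adds no support. HSPB1 averaged 12.17 in CWR22Rv1 with Stat5a/b siRNA, against 11.97 with scramble siRNA, and every Stat5a/b siRNA array lay above every control. Its change of 0.20 ± 0.08 did not pass the test (adjusted p = 0.156) but passed when CWR22Rv1 was fitted alone (adjusted p = 0.0122), with the replicate block (adjusted p = 0.0222) and with a trended, robust prior (adjusted p = 0.0448). DNAJB1 changed by -0.17 ± 0.07 (adjusted p = 0.188, and 0.0384 with CWR22Rv1 fitted alone). HSPA4 changed by 0.07 ± 0.06 (adjusted p = 0.641), HSP90AB1 by 0.10 ± 0.06 (adjusted p = 0.391), HSP90AA1 by 0.04 ± 0.05 (adjusted p = 0.826), DNAJA1 by 0.01 ± 0.05 (adjusted p = 0.94) and HSF1 by 0.18 ± 0.10 (adjusted p = 0.413). A fit to CWR22Rv1 alone called 8 lower and 4 higher.

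**Figure D3:**
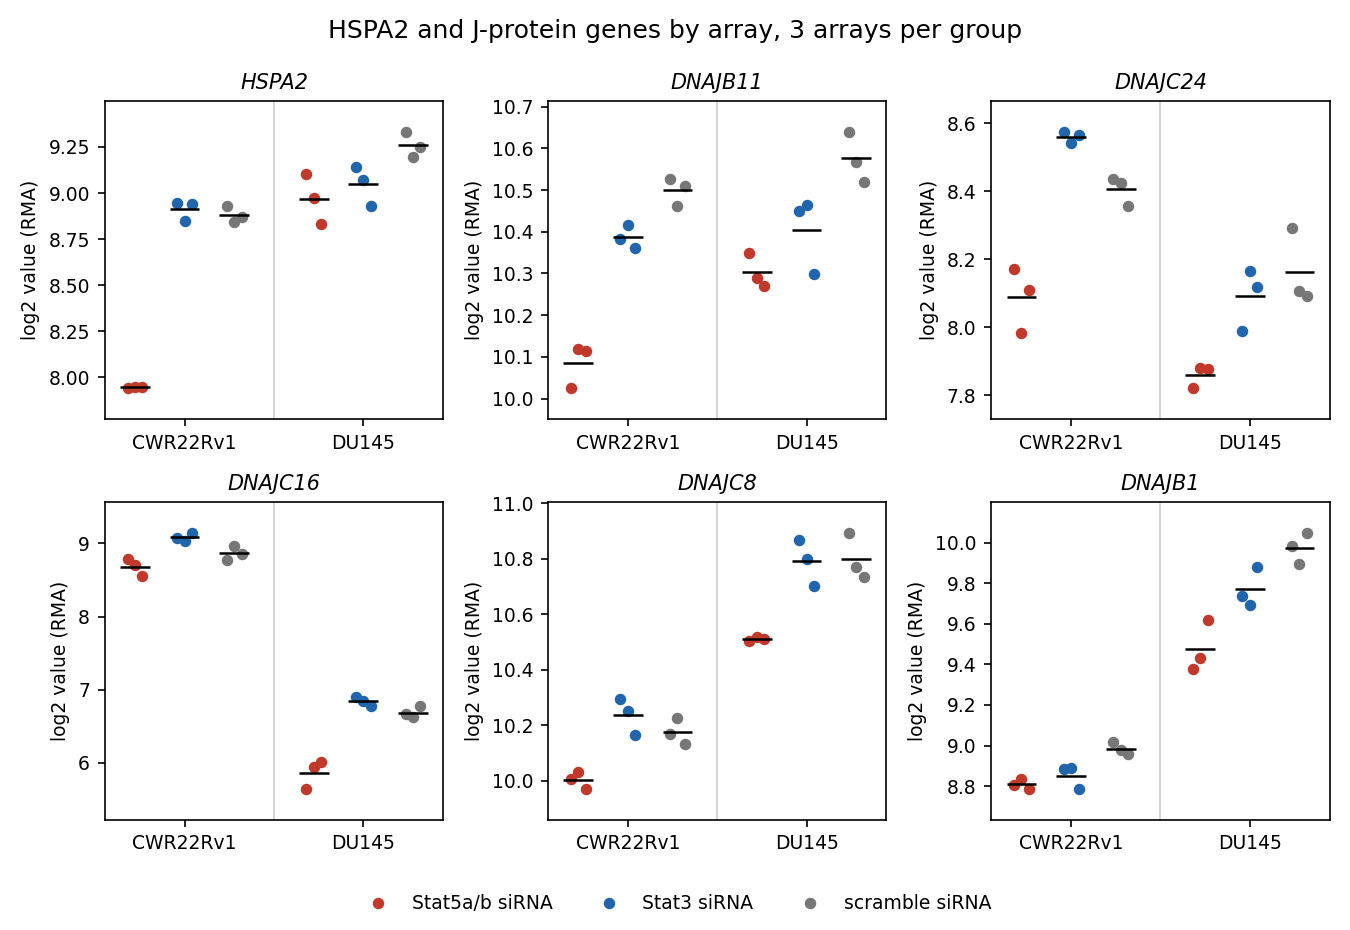
Each panel plots the log2 value of 1 gene (vertical axis, RMA log2 units) for every array of the 6 groups, with Stat5a/b siRNA in red, Stat3 siRNA in blue and scramble siRNA in grey within each line, and a black bar at the group mean. In CWR22Rv1 the HSPA2 arrays with Stat5a/b siRNA lie at 7.94 to 7.95, below the Stat3 siRNA and scramble arrays at 8.84 to 8.95.

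Setting Stat5a/b siRNA directly against Stat3 siRNA compares 2 depleted states and uses no scramble array. HSPA4, DNAJA1 and HSP90AB1 were higher, and DNAJC16, DNAJC8 and DNAJC24 lower, with Stat5a/b siRNA than with Stat3 siRNA in both lines. In DU145 10 of the 69 genes were higher (14.5%) and 8 lower (11.6%), where 11% of all genes were higher and 11.2% lower. In CWR22Rv1 5 were higher (7.25%) and 5 lower (7.25%), where 4.7% of all genes were higher and 6.05% lower. The 3 shared rises were 60% of those in CWR22Rv1 and 30% of those in DU145, and the 3 shared falls 60% and 37.5%. Over all genes the shared rises were 41.8% of those in CWR22Rv1 and 18% of those in DU145, and the shared falls 47.6% and 25.7%. As shares of the genes tested, the counts were near those of all genes in DU145.

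The 3 shared rises belong to the HSP70 and HSP90 systems. HSPA4 was 0.28 ± 0.06 higher in CWR22Rv1 (10.11, 10.15 and 10.06 with Stat5a/b siRNA, against 9.82, 9.82 and 9.84 with Stat3 siRNA; adjusted p = 0.00314). In DU145 it was 0.37 ± 0.06 higher (11.07, 11.10 and 11.24, against 10.78, 10.75 and 10.77; adjusted p = 0.000133). HSP90AB1 was 0.25 ± 0.06 higher in CWR22Rv1, with 12.58, 12.63 and 12.59 under Stat5a/b siRNA, against 12.36, 12.36 and 12.34 under Stat3 siRNA (adjusted p = 0.0103). In DU145 it was 0.24 ± 0.06 higher, with 13.02, 12.97 and 13.11, against 12.85, 12.71 and 12.82 (adjusted p = 0.00653). The sizes were close in the lines, and the arrays of the groups did not overlap. DNAJA1 was 0.16 ± 0.05 higher in CWR22Rv1 (adjusted p = 0.0474), with 11.87, 11.85 and 11.83, against 11.72, 11.70 and 11.63, a call lost whenever any 1 of these 6 arrays was left out (adjusted p up to 0.19). In DU145 it was 0.50 ± 0.05 higher (adjusted p = 2.18e-06), with 11.37, 11.40 and 11.44, against 10.87, 10.89 and 10.93. HSPE1 differed by -0.03 ± 0.07 in CWR22Rv1 (adjusted p = 0.851) and was 0.35 ± 0.07 higher in DU145 (adjusted p = 0.00168).

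DNAJC16 had 8.79, 8.70 and 8.55 in CWR22Rv1 with Stat5a/b siRNA, against 9.07, 9.04 and 9.14 with Stat3 siRNA, a change of -0.40 ± 0.09 (adjusted p = 0.00778). In DU145 it had 5.64, 5.95 and 6.01, against 6.89, 6.85 and 6.78, a change of -0.98 ± 0.09 (adjusted p = 9.98e-07). DNAJC24 was -0.47 ± 0.07 in CWR22Rv1 (adjusted p = 0.000265) and -0.23 ± 0.07 in DU145 (adjusted p = 0.0223). DNAJC8 was -0.23 ± 0.06 in CWR22Rv1 (adjusted p = 0.0191) and -0.28 ± 0.06 in DU145 (adjusted p = 0.00314). Of the 6 fits that each left out 1 array, 4 lost DNAJC8 in CWR22Rv1 (adjusted p up to 0.0941) and 3 lost DNAJC24 in DU145 (adjusted p up to 0.081), where the mean of all its probe sets also missed (-0.14, adjusted p = 0.286). In DU145 DNAJB1 was also lower (-0.29 ± 0.07, adjusted p = 0.00616), DNAJC5 lower (-0.40 ± 0.08, adjusted p = 0.00132) and DNAJC30 lower (-0.25 ± 0.06, adjusted p = 0.00649), while DNAJC27 (0.44 ± 0.08, adjusted p = 0.000749), DNAJB4 (0.43 ± 0.11, adjusted p = 0.00833) and HSPA13 (0.35 ± 0.09, adjusted p = 0.0102) were higher. In CWR22Rv1 HSPB8 had 8.20, 8.30 and 8.27 with Stat5a/b siRNA, against 7.92, 7.77 and 7.87 with Stat3 siRNA, and was 0.41 ± 0.06 higher (adjusted p = 0.000199). DNAJB14 was 0.35 ± 0.09 higher (adjusted p = 0.0218), HSPA2 -0.97 ± 0.07 (adjusted p = 3.51e-07) and DNAJB11 -0.30 ± 0.06 (adjusted p = 0.00288). DNAJB14 lost its call in 5 of its 6 fits with an array left out (adjusted p up to 0.0881). In DU145 the calls of DNAJC13, DNAJC19, DNAJC2, DNAJC9, HSPA13 and HSPA4L were also lost in some such fits. The mean of all probe sets ended the calls of DNAJA1 (adjusted p = 0.0775) and HSPB8 (0.22, adjusted p = 0.0542) in CWR22Rv1, and in DU145 those of DNAJC27 (0.18, adjusted p = 0.103) and DNAJC30 (adjusted p = 0.0528), among others. Fitted alone, CWR22Rv1 gave 11 higher and 10 lower, and DU145 4 higher and 3 lower.

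**Figure D4:**
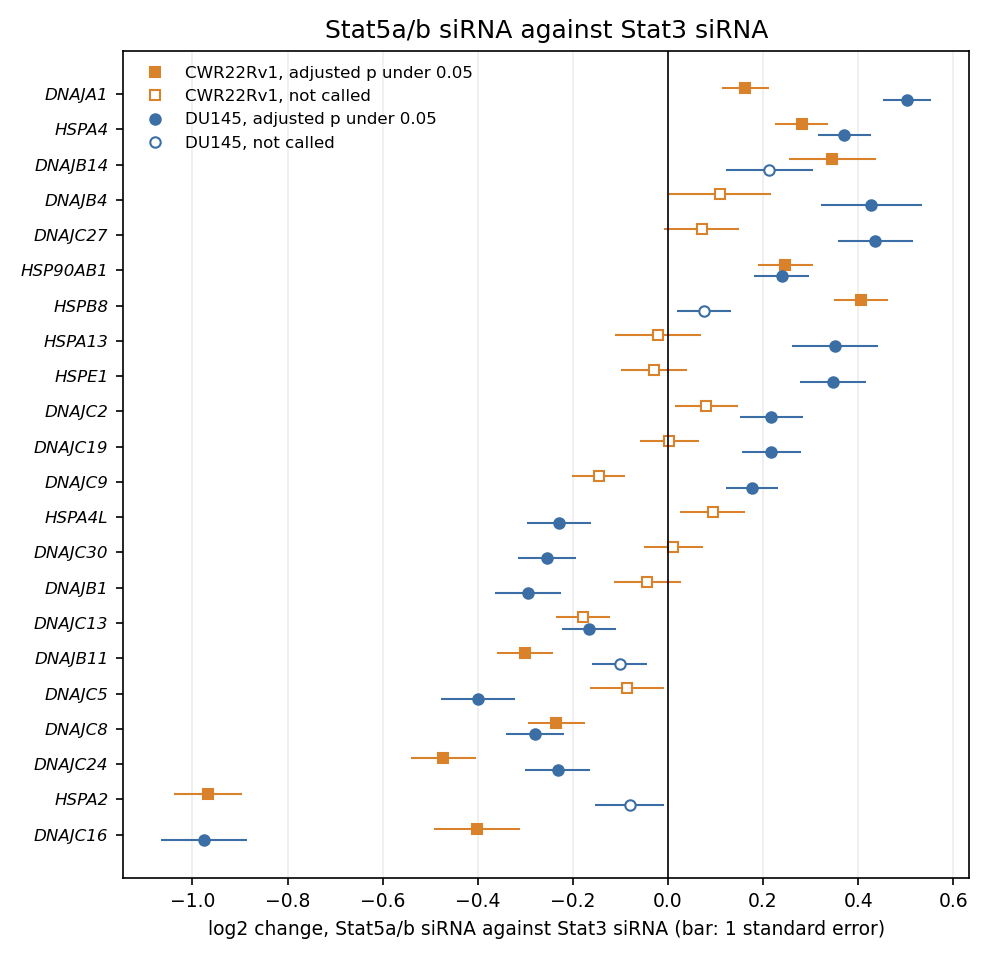
The log2 change with Stat5a/b siRNA against Stat3 siRNA (horizontal axis, bars of 1 standard error) is plotted for the genes called in at least 1 line, CWR22Rv1 as orange squares and DU145 as blue circles, filled where the adjusted p was under 0.05. HSPA4, HSP90AB1 and DNAJA1 lie right of 0 and DNAJC16, DNAJC24 and DNAJC8 left of 0 with filled symbols in both lines.

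The inducible HSP70 genes HSPA1A and HSPA1B were read only by probe sets annotated to both, or to both and HSPA1L, so no value belongs to 1 gene. The probe set that changed most had 9.26, 9.30 and 9.37 in DU145 with Stat5a/b siRNA and 8.50, 8.71 and 8.73 with Stat3 siRNA, against 8.98, 9.06 and 9.24 with scramble siRNA. It was lower with Stat3 siRNA than with scramble siRNA (-0.45 ± 0.08, adjusted p = 0.00207, limma over all probe sets) and higher with Stat5a/b siRNA than with Stat3 siRNA (0.67 ± 0.08, adjusted p = 3.32e-05). The other 2 changed by -0.07 (adjusted p = 0.683) and -0.28 (adjusted p = 0.0271) with Stat3 siRNA, and were 0.47 (adjusted p = 0.000731) and 0.32 (adjusted p = 0.00906) higher with Stat5a/b siRNA than with Stat3 siRNA. Against scramble siRNA, the brightest of the 3 in DU145 was higher with Stat5a/b siRNA both in CWR22Rv1 (0.31, adjusted p = 0.045) and in DU145 (0.39, adjusted p = 0.0028). The other 2 did not pass, at 0.22 and 0.23 in CWR22Rv1 (adjusted p = 0.175 and 0.189) and 0.04 and 0.22 in DU145 (adjusted p = 0.816 and 0.0868). In DU145 the 3 probe sets moved the same way as HSPA4 and DNAJA1 in the comparison of the siRNAs. In CWR22Rv1 that comparison gave 0.15, 0.07 and 0.06, and none passed the test (adjusted p = 0.379, 0.695 and 0.748). The 4 probe sets annotated to HSPA8 together with small nucleolar RNAs in its introns changed by -0.11 to 0.16 across the siRNA against scramble comparisons, and none was called (lowest adjusted p = 0.184).

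A test of the difference between the lines asked whether an siRNA effect was larger in CWR22Rv1 or in DU145. For Stat3 siRNA it called 1 of 69 genes, DNAJB6, as lower in CWR22Rv1 (1.45%), where 1.18% of all genes were lower, and 0 as higher, where 1.82% of all genes were higher. At an unadjusted p under 0.05 in limma 3 were lower and 7 higher. Of all 54613 probe sets, 6857 passed in either direction, which is not a share over genes. The HSPA4 effect was 0.18 ± 0.08 weaker as a fall in CWR22Rv1 (adjusted p = 0.246) and that of DNAJA1 0.22 ± 0.07 (adjusted p = 0.102), so neither was shown to differ between the lines. For Stat5a/b siRNA 6 genes had a more positive effect in CWR22Rv1 (8.7%) and 2 a more negative one (2.9%), where 6.75% and 5.17% of all genes did. The 6 were DNAJC16, DNAJC18, HSPA12B, HSPB8, DNAJB12 and DNAJB1, and the 2 were HSPA2 and DNAJC9. With the mean of all probe sets, HSPA2 and DNAJC16 remained called and the other 6 did not, DNAJC9 at -0.29 (adjusted p = 0.103) and HSPB8 at 0.06 (adjusted p = 0.76).

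The 8 genes differed in kind. HSPA2 had effects of -0.94 in CWR22Rv1 and -0.29 in DU145, a fall in both (difference -0.64 ± 0.10, adjusted p = 0.00083). DNAJC16 had -0.18 in CWR22Rv1 and -0.82 in DU145 (0.64 ± 0.13, adjusted p = 0.00437). DNAJC9 had -0.19 in CWR22Rv1 (adjusted p = 0.0593) and 0.26 in DU145, opposite in sign (-0.45 ± 0.08, adjusted p = 0.00169). HSPB8 had 0.19 in CWR22Rv1 (adjusted p = 0.0547) and -0.23 in DU145 (0.43 ± 0.08, adjusted p = 0.00283).

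The largest differences between the lines were far larger than any siRNA change, but this did not hold gene by gene. HSPA2 had group means of 8.88 in CWR22Rv1 and 9.26 in DU145 scramble arrays, against 7.95 in CWR22Rv1 with Stat5a/b siRNA. Between scramble arrays, 28 of the 69 genes were higher in CWR22Rv1 (40.6%) and 20 lower (29%), where 30% of all genes were higher and 27% lower. Of these, 7 were at least 2-fold higher and 7 at least 2-fold lower. The share of all genes at least 2-fold apart was not computed, so no conclusion is drawn from these 2-fold counts. Mitochondrial HSP60 and HSP10 and 3 of the 7 small heat shock proteins were higher in CWR22Rv1, and HSF1, HSPA4 and HSP90AB1 were lower. The comparison has a single line on each side, so it describes these lines only.

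HSPB6, the small heat shock protein HSP20, had 8.70, 9.03 and 8.80 in CWR22Rv1 scramble arrays, against 4.39, 4.37 and 4.36 in DU145 scramble arrays, a difference of 4.47 ± 0.19 (adjusted p = 1.54e-12). DNAJC12 had 8.48, 8.50 and 8.55, against 4.45, 4.39 and 4.55 (4.05 ± 0.17, adjusted p = 2.11e-12). DNAJC15, an inner mitochondrial membrane J protein of the respiratory chain, ran the other way, with 3.41, 3.90 and 3.38 in CWR22Rv1, against 7.57, 7.61 and 8.10 in DU145 (-4.20 ± 0.19, adjusted p = 3e-12). In each of these genes 1 line was near the bottom of the array's range, where how far a value lies above background is unknown. DNAJC16 was 2.18 ± 0.09 higher and DNAJC1 1.52 ± 0.19 higher in CWR22Rv1, and the noncoding DNAJC3-DT 2.67 ± 0.14 higher. DNAJB4 was -1.85 ± 0.11, DNAJC18 -1.74 ± 0.11, HSPA12A, a distant HSP70 relative, -1.57 ± 0.14 and DNAJB6 -1.23 ± 0.09.

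HSPE1 had 12.12, 12.13 and 12.15 in CWR22Rv1, against 11.00, 10.88 and 11.03 in DU145, and was 1.16 ± 0.07 higher (adjusted p = 1.75e-10). HSPD1 had 13.71, 13.68 and 13.70, against 12.91, 12.91 and 12.98, and was 0.76 ± 0.05 higher (adjusted p = 1.69e-09). HSPB1 was 0.79 ± 0.08 higher (adjusted p = 1.06e-07). The mitochondrial import J protein DNAJC19 was 0.97 ± 0.06 higher and the mitochondrial DNAJA3 0.54 ± 0.07 higher, while HSPA9 was only 0.16 ± 0.07 higher, with overlapping arrays (adjusted p = 0.045, and 0.178 with the mean of its probe sets). HSF1 had 7.21, 7.22 and 7.11 in CWR22Rv1, against 8.12, 7.81 and 7.85 in DU145, a difference of -0.74 ± 0.10 (adjusted p = 6.86e-06). HSPA4 was -1.12 ± 0.06 (adjusted p = 1.34e-11), though a dim probe set of this gene differed by 2.45 the other way and 2 more by -1.04. HSP90AB1 was -0.49 ± 0.06 (adjusted p = 1.1e-06) and DNAJB1 -0.99 ± 0.07 (adjusted p = 1.68e-09). The other HSP110 genes ran the other way from HSPA4, with HSPA4L 0.60 ± 0.07 higher (adjusted p = 6.22e-07) and HSPH1 0.35 ± 0.07 higher (adjusted p = 0.000239), and HSP90AA1 differed by -0.13 ± 0.05 (adjusted p = 0.0533). The probe sets shared by HSPA1A and HSPA1B disagreed, at -1.32 and 1.06, so no direction is given for them.

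**Figure D5:**
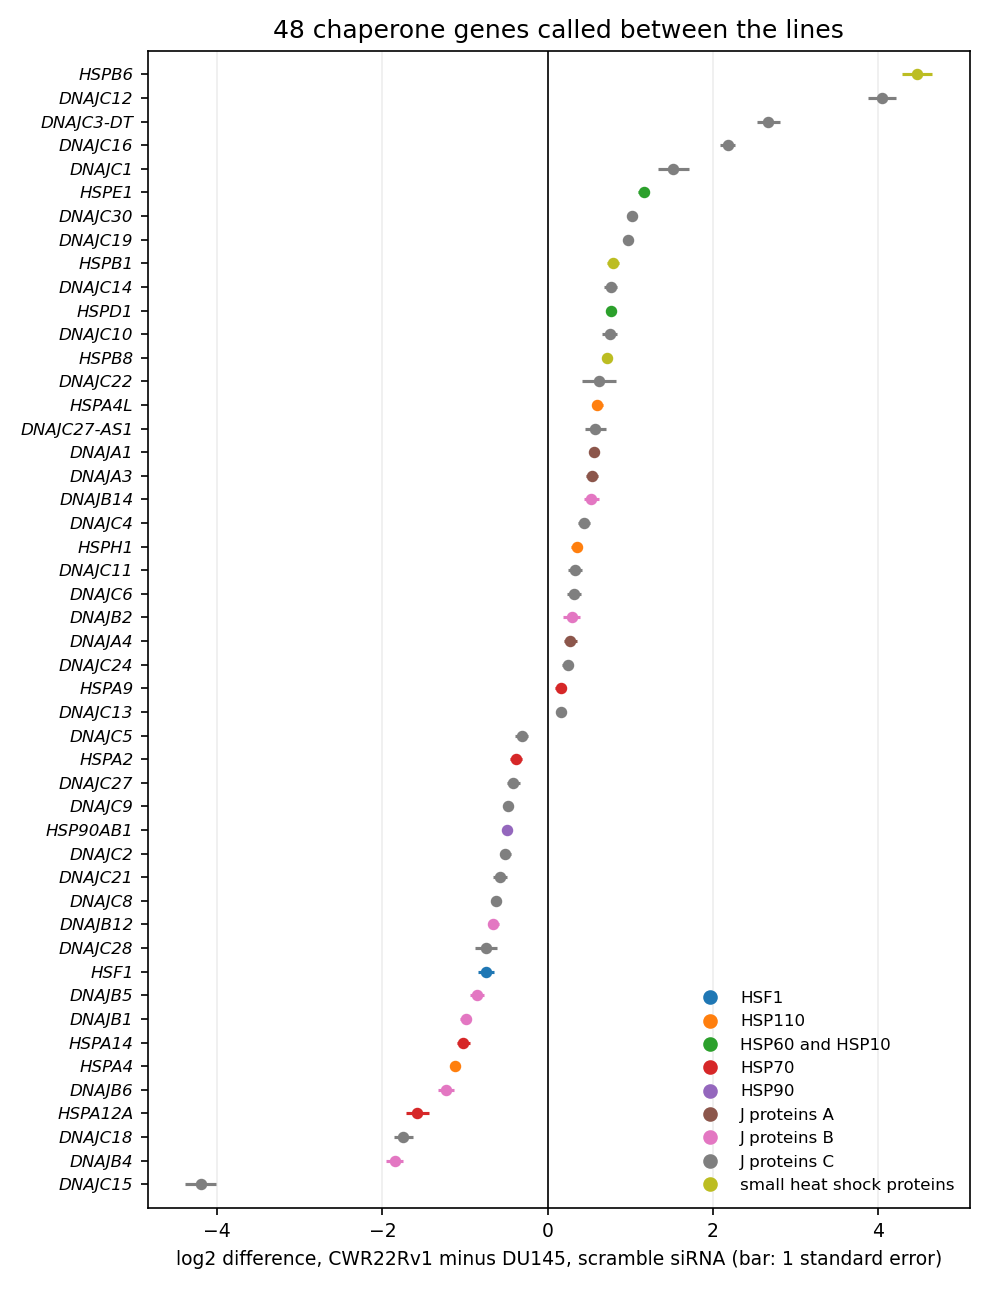
The log2 difference of CWR22Rv1 minus DU145 scramble arrays (horizontal axis, bars of 1 standard error) is plotted for the 48 genes called between the lines, coloured by family. HSPB6 (4.47) and DNAJC12 (4.05) lie farthest to the right and DNAJC15 (-4.20) farthest to the left.

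Genes outside the symbol rule that work with these chaperones were described from lists. Of 17 HSP90 co-chaperones, 16 were measured. PTGES3, the co-chaperone p23, fell with Stat3 siRNA in CWR22Rv1 (-0.35 ± 0.05, adjusted p = 0.000342) and in DU145 (-0.48 ± 0.05, adjusted p = 2.44e-06), and was higher with Stat5a/b siRNA than with Stat3 siRNA in both (0.36 and 0.54, adjusted p = 8.5e-05 and 3.81e-07). HSPA4 moved in these same directions. In DU145 Stat3 siRNA lowered 3 of the 16 (18.8%, where 8.25% of all genes were lower) and raised 0, PTGES3 with CDC37L1 (-0.43 ± 0.11, adjusted p = 0.013) and the immunophilin FKBP4 (-0.28 ± 0.08, adjusted p = 0.028). At an unadjusted p under 0.05 in limma 5 were lower and 0 higher. Of all 54613 probe sets, 11525 passed in either direction, which is not a share over genes. The list's median change there was -0.11, against 0.01 for all genes. Stat5a/b siRNA in DU145 raised 3 (18.8%, where 11.8% of all genes were higher), CHORDC1 (0.40), PPID (0.38) and CDC37L1 (0.36). It lowered 1 (6.25%, where 12.5% of all genes were lower), FKBP5 (-0.35). In CWR22Rv1 PTGES3 was the only one called, with Stat3 siRNA (6.25% of the list, where 2.02% of all genes were lower).

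The DU145 counts with Stat5a/b siRNA given next stand beside shares of 12.5% lower and 11.8% higher over all genes. Among 12 cofactors of HSP70, BAG1, an exchange factor, was lower in DU145, by limma, under Stat5a/b siRNA (-0.62 ± 0.08, adjusted p = 2.06e-05) and under Stat3 siRNA (-0.51 ± 0.08, adjusted p = 0.000186). It was the only one called with Stat3 siRNA (8.33% of the 12, where 8.25% of all genes were lower in DU145). Stat5a/b siRNA in DU145 raised 3 of the 12 (25%), among them the mitochondrial exchange factor GRPEL2 (0.76 ± 0.09, adjusted p = 1.5e-05) and BAG5 (0.34 ± 0.08, adjusted p = 0.00368), and lowered 4 (33.3%), among them the ER exchange factor SIL1 (-0.34 ± 0.07, adjusted p = 0.00113). Of 12 measured TRiC and prefoldin subunits, which fold actin and tubulin, Stat5a/b siRNA raised 2 and lowered 1 in DU145, CCT8 by -0.23 ± 0.05 (adjusted p = 0.00228). Of 11 further mitochondrial chaperones and proteases, 3 rose (27.3%) and 1 fell (9.09%) in that comparison, led by the protease subunit CLPX (0.48 ± 0.07, adjusted p = 8.47e-05).

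Among 7 measured heat shock factors and HSF1-responsive genes outside the rule, SERPINH1, the collagen chaperone HSP47, was lower with Stat3 siRNA in DU145 (-0.64 ± 0.09, adjusted p = 0.000119). It was higher with Stat5a/b siRNA than with Stat3 siRNA in CWR22Rv1 (0.55 ± 0.09, adjusted p = 0.000745) and in DU145 (0.65 ± 0.09, adjusted p = 6.94e-05). Of 12 ER chaperones, Stat5a/b siRNA lowered 4 in CWR22Rv1 (33.3%, where 3.3% of all genes were lower), led by HYOU1, an HSP110 relative of the ER (-0.44 ± 0.10, adjusted p = 0.00969), and HSP90B1, the ER HSP90 (-0.34 ± 0.07, adjusted p = 0.00899). It lowered 7 (58.3%, where 12.5% of all genes were lower) and raised 1 in DU145, with HSP90B1 at -0.46 ± 0.07 (adjusted p = 0.000205), CALR, a lectin chaperone, at -0.57 ± 0.09 (adjusted p = 0.00024) and PDIA6, a disulfide isomerase, at -0.40 ± 0.07 (adjusted p = 0.00036). The list's median change was -0.15 in CWR22Rv1 and -0.26 in DU145, and the ER J protein DNAJB11 described above moved the same way. The exception there was DNAJB9, an ER J protein raised by the unfolded protein response, at 0.53 ± 0.06 in DU145 (adjusted p = 5.4e-06). Stat3 siRNA in DU145 lowered 4 of the 12 (33.3%, where 8.25% of all genes were lower) and raised 0, with a median of -0.19. DNAJB9 was among the 4, at -0.40 ± 0.06 (adjusted p = 0.000125). At an unadjusted p under 0.05 in limma 7 were lower and 1 higher there. Of all 54613 probe sets, 11525 passed in either direction, which is not a share over genes.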

How the data were processed

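Total RNA of 18 samples was hybridised to Affymetrix U133 Plus 2.0 arrays, per the labels. The deposited values are log2 expression per probe set, made by RMA per the submitters' processing notes, which also name limma, both without versions. They were used unscaled. Of 54675 probe sets, 41091 have 1 symbol, 1801 several and 11721 none in the platform annotation, and 41037 matched RefSeq (GRCh38.p14) by Entrez identifier. A gene with several single-symbol probe sets was read from the brightest on average. Of the 69 chaperone genes, 51 had more than 1.

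In limma 3.58.1 (R 4.3.3), lmFit and eBayes estimated a mean per group from the 18 arrays together, with two-sided tests and Benjamini-Hochberg adjustment over 19775 genes per comparison. The fit was tested on simulated data. Standard errors pool all 6 groups (median 0.099), and the median spread of the chaperone genes was 0.103 to 0.114 in DU145 groups and 0.050 to 0.063 in CWR22Rv1 groups, so pooling understates the DU145 p-values and overstates those of CWR22Rv1. The number of arrays limits the precision.

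Same-numbered Stat3 siRNA and scramble arrays of DU145 correlated in their deviations (0.197, 0.158 and 0.328). In no other siRNA against scramble comparison did every pair exceed 0.1.

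Named were HSF1, 13 core chaperones, the called genes of each siRNA against scramble comparison, and up to 5 called genes each way elsewhere. A few other genes were added after their values were seen. All genes and lists were chosen with earlier results of these data known. Protein sequences were not used here.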

Additional observations from a re-analysis of the deposited data

Results flagged for a closer look

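The effect of an siRNA differed between the lines, by the interaction test in limma, in 9 instances. All values are the log2 effect in CWR22Rv1 minus that in DU145, with the highest adjusted p over the 12 fits that each left out 1 array. For Stat5a/b siRNA, HSPA2 differed by -0.64, DNAJC9 by -0.45, HSPB8 by 0.43, DNAJB12 by 0.37 and DNAJC16 by 0.64, and these stayed called in each of those fits (highest adjusted p = 0.0034, 0.00672, 0.0104, 0.0453 and 0.0148). DNAJB1 differed by 0.32, HSPA12B by 0.44 and DNAJC18 by 0.55, and these were lost in 10, 6 and 8 of the 12 fits (highest adjusted p = 0.104, 0.0756 and 0.0807). With the mean of all probe sets, DNAJC9, HSPB8, DNAJB12, DNAJB1, HSPA12B and DNAJC18 were no longer called (adjusted p = 0.103, 0.76, 0.144, 0.0821, 0.452 and 0.123). For Stat3 siRNA, DNAJB6 differed by -0.55 and was lost in 8 of the 12 (highest adjusted p = 0.0899).

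HSPA12B, a distant HSP70 relative, was dim in every group, at 5.22, 5.27 and 5.25 with Stat5a/b siRNA in CWR22Rv1, against 4.98, 4.88 and 5.19 with scramble siRNA. In DU145 it had 4.97, 5.07 and 4.74 with Stat5a/b siRNA, against 5.15, 5.13 and 5.13 with scramble siRNA. Neither effect passed the test within its line (adjusted p = 0.158 and 0.0889).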

How the results depend on the processing

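Quantile normalisation and cyclic loess kept each total of called chaperone genes within 1.5 times, but quantile normalisation called 8 higher, not 4, with Stat5a/b siRNA in DU145, as did 3 other settings (no dim genes, a trended and robust prior, the mean of all probe sets). Fitted to each line alone, the total called was 9 (Stat3 siRNA) and 11 (Stat5a/b siRNA) in DU145, 8 and 12 in CWR22Rv1, and 7 and 21 for Stat5a/b against Stat3 siRNA in DU145 and CWR22Rv1. The shares of all genes called in those fits are not given. For CWR22Rv1 with Stat3 siRNA the total was 6 without dim genes and 5 with a trended, robust prior, and with Stat5a/b siRNA 8, 7 and, with the replicate block, 5. For the line difference of the Stat3 siRNA effect it was 3, 3 and 2 under these settings, and for Stat5a/b siRNA 3 with the mean of all probe sets. Leaving out 1 array gave 0 to 1 calls for Stat3 siRNA in CWR22Rv1, 0 to 2 for the line difference of its effect, and 5 to 8 for that of Stat5a/b siRNA. With the mean of all probe sets, HSPB8 with Stat5a/b siRNA in DU145 turned to 0.0522 (adjusted p = 0.658), DNAJC13 between the lines to -0.0018 (adjusted p = 0.986) and HSPA14 to 0.15 (adjusted p = 0.0434). The cause was not tested.

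The replicate block gave 20 calls for Stat3 siRNA in DU145, against 15 without it. In the other siRNA against scramble comparisons the labels give only a shared number, and not every same-numbered pair correlated above 0.1 in its deviations. There it added DNAJB14 (adjusted p = 0.0124) and DNAJA3 (adjusted p = 0.0231) and lost DNAJC17 (adjusted p = 0.0907) for Stat5a/b siRNA in DU145. For CWR22Rv1 it added DNAJB14 and HSPB1 and lost HSPB8 (adjusted p = 0.0526) with Stat3 siRNA, and added DNAJC9 and HSPB1 with Stat5a/b siRNA. Dim signals limit DNAJC12, HSPA6 and HSPA12B, since detection calls were not used here.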

Other observations

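HSPB6, the small heat shock protein that differed most between the lines, had log2 values of 9.31, 9.56 and 9.39 in CWR22Rv1 with Stat5a/b siRNA, against 8.70, 9.03 and 8.80 with scramble siRNA. The groups did not overlap, but the change of 0.58 ± 0.19 did not pass the test (adjusted p = 0.0859, limma). In DU145, where it was dim, it had 4.74, 4.84 and 3.97, against 4.39, 4.37 and 4.36.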
